A study of Mus musculus with 23 samples.

Results

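The regions described here are the 248 peaks, of 51412 measured by ATAC-seq, that were most open in type 1 innate lymphoid cells (ILC1s) of the mouse salivary gland. ATAC-seq measures open chromatin from where a transposase can insert into DNA. Reads in each peak were scaled to CPM, counts brought to a common sum per library. A peak was selected when the mean of the 2 salivary gland ILC1 libraries was at least 2 CPM and at least 3 times the mean of each of the other groups. The other groups were ILC1s of the liver, natural killer (NK) cells of the liver and NK cells of the spleen, with 2 libraries each. The salivary gland level therefore chose the peaks, and its height over the other groups is given as a description with no test. The selected peaks were 0.482% of all peaks and 0.558% of the 44442 peaks that reached the floor of 2 CPM.

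Each ATAC-seq library came from 50000 sorted and viably frozen mouse cells. For the gate, the series description names NK1.1+ NKp46+ CD49a+ cells as ILC1s and NK1.1+ NKp46+ CD49a- CD49b+ cells as NK cells. The sample labels name other cells, namely GzmC+GzmcFM+ ILC1s (granzyme C expressed now and marked by its fate-map reporter) and S1pr5eGFP+ NK cells, so the sources disagree on the gate. RNA-seq covered the liver only, in 15 libraries from 6 mice, with GzmC+GzmcFM+ ILC1s (double-positive, DP, n = 4), GzmC-GzmcFM+ ILC1s (fate-mapped single-positive, FMSP, n = 4), GzmC-GzmcFM- ILC1s (double-negative, DN, n = 3) and S1pr5eGFP+ NK cells (n = 4). Strain, age and the number of animals per ATAC-seq library are not given in the sources used here. With 2 libraries a group, p-values for ATAC-seq measure only the spread between libraries, which may be technical.

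ILC1s and NK cells are innate lymphocytes that kill and make interferon gamma. NK cells circulate, whereas ILC1s live in tissues and carry the integrin CD49a. Salivary gland ILC1s are known to depend on transforming growth factor beta (TGF-beta), a cytokine that is released from a latent complex by integrins, binds paired receptors and acts through SMAD proteins in the nucleus. Open chromatin away from gene starts often marks enhancers, which act on genes at a distance.

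The authors assigned a gene and a type to most peaks. No selected peak can be shown as DNA letters here, but RefSeq promoter windows on GRCm38.p6 (250 bases before to 50 after a gene start, 300 in all) overlapped selected peaks at 5 genes. Of these, 3 are printed because they lie wholly inside a selected peak, written 5′ to 3′ on the strand of the gene. Capitals mark GGGCGG or its reverse complement CCGCCC, the GC box bound by SP factors, which was searched on both strands with overlaps allowed. The windows of Pde4a and Matk lie only partly inside one, by 151 and 234 bases, and are not printed. The Atcayos window lies at chr10:81194441-81194740 on the plus strand, the Tjp1 window at chr7:65371195-65371494 on the minus strand and the Gne window at chr4:44084128-44084427 on the minus strand.
Atcayos: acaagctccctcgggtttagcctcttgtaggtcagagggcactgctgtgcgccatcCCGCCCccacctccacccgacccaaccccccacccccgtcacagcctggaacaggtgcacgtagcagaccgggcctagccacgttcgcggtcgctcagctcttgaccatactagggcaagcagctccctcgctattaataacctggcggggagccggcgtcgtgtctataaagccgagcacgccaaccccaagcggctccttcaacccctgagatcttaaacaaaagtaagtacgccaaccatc
Tjp1: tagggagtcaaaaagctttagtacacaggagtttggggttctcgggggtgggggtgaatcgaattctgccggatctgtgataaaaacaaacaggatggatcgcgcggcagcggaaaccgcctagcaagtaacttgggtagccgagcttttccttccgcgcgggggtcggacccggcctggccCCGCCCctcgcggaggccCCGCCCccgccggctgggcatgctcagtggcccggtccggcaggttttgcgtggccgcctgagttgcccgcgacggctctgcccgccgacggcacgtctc
Gne: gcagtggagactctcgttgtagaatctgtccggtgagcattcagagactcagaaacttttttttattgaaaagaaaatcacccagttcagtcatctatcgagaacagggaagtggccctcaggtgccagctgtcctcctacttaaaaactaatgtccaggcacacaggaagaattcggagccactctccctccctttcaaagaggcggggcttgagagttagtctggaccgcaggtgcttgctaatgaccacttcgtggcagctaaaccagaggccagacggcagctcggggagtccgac
The Tjp1 window held 2 GC boxes, the Atcayos window 1 and the Gne window 0. GC boxes were present in 35.66% of all 32851 promoter windows and in 66.17% of the 12230 that lay in promoter peaks. None of the 3 windows held the letters TGANTCA (AP-1), TGACGTCA (CRE), CCGGAAGT (ETS), TGTGGTT (RUNX), AGGTGTGA (T-box) or GTCTAGAC (SMAD). Among all windows these were found in 7.81%, 1.79%, 3.89%, 5.27%, 1.28% and 0.21% in that order. These letters were read in the windows alone and say nothing of the rest of each peak.

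Selected peaks lay inside and between genes more than at gene starts. By the authors' types, 94 were intronic (37.9%), 72 intergenic (29.03%), 50 promoter (20.16%) and 32 exonic (12.9%). Among all peaks the shares were 29.71% intronic, 28.6% intergenic, 35.03% promoter and 6.66% exonic. The share of a type that was selected was 0.934% for exons, 0.616% for introns, 0.49% for intergenic peaks and 0.278% for promoters. Even the promoter-type peaks lay far from RefSeq starts: the 36 that could be matched were a median of 6163 bases from the start of the assigned gene, with 6 within 1000 bases. All 12363 matched promoter-type peaks had a median distance of 335.5 bases, with 64.16% within 1000. In width the selected peaks resembled the rest, with a median of 988 bases against 998 over all peaks.

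In level, the selected peaks ranged from moderate to high in salivary gland ILC1s. Their group means had medians of 29.2 CPM in salivary gland ILC1s, 6.67 in liver ILC1s, 6.88 in liver NK cells and 3.83 in spleen NK cells. Over all peaks the medians were 8.13, 10.8, 12.4 and 7.76 CPM in the same order. The salivary gland mean ran from 3.43 to 123 CPM, and its ratio to the highest other mean ran from 3.00 to 8.99 with a median of 3.62. That ratio reached 4 in 74 peaks, 5 in 25 and 6 in 13. Both salivary gland libraries stood above all 6 others in each of the 248 peaks, at least 2 times above in 243 and at least 3 times above in 122. The highest other group was liver NK cells in 139 peaks, liver ILC1s in 105 and spleen NK cells in 4. In sorted bulk samples, a peak that is more open per cell and one that is open in more of the cells cannot be told apart, and likewise for RNA.

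**Figure D1:**
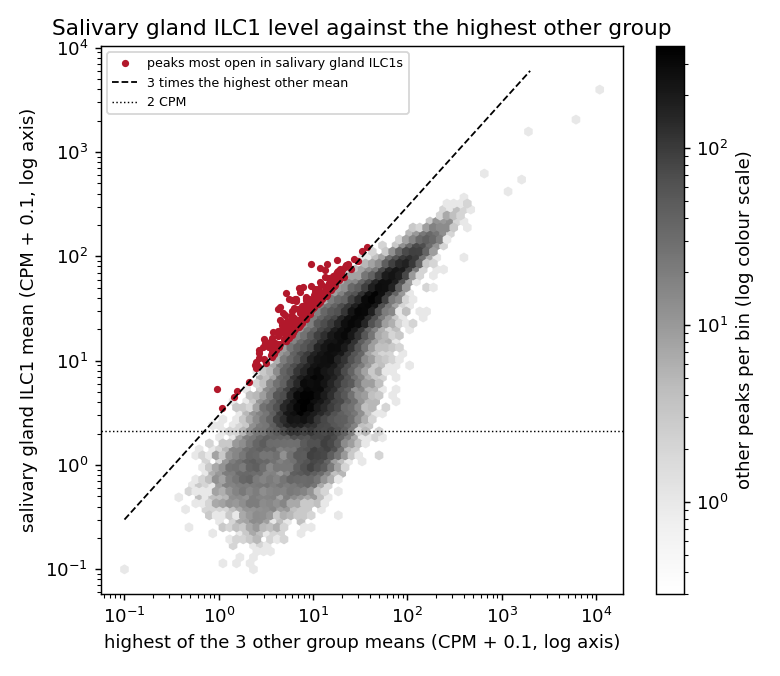
Each red point is 1 of the 248 selected peaks and grey bins count the other peaks, with the salivary gland ILC1 mean on the y axis and the highest of the 3 other group means on the x axis (both CPM plus 0.1, log axes). The selected peaks form the edge of a continuous cloud above the 3-fold line, with salivary gland means between 3.43 and 123 CPM.

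The 3-fold limit cut through a continuous range. Just inside it were peaks of Fry, Gm27166 and Ube2d3, each at a ratio of 3.00. Just outside were a peak of Piwil2 at 2.997, one with no assigned gene on chromosome 13 at 2.99 and one of Pik3cb at 2.989. The floor of 2 CPM decided nothing, because the lowest selected peaks, of P2rx3, Gm13655 and an unassigned region of chromosome 2, were at 3.43, 4.36 and 5.08 CPM, and none under 2 CPM passed the fold limit.

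The rule was also applied to the libraries of 1 replicate number, and the peaks it took were read in the libraries of the other number. The replicate 1 libraries selected 222 peaks, and in the replicate 2 libraries the salivary gland was highest in 220 of them (99.1%) and at least 2-fold highest in 205 (92.34%), with a median ratio of 3.54. The replicate 2 libraries selected 310 peaks, and in the replicate 1 libraries the salivary gland was highest in 308 (99.35%) and at least 2-fold highest in 263 (84.84%), with a median ratio of 3.02. The full 3-fold rule was met again by 156 peaks, which was 70.27% of those from replicate 1 and 50.32% of those from replicate 2. The selected peaks themselves were chosen from both replicates, so these values do not test their height. The share of all peaks with the salivary gland highest is not given here, and the replicates may be technical. The values are therefore given as a description only.

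Libraries differed in depth and in where their reads fell. Salivary gland ILC1 libraries held 16058700 and 26944890 reads in peaks, and the other libraries between 5609587 and 14270504. The selected peaks took 0.824% to 0.883% of the reads in salivary gland libraries, against 0.177% to 0.216% in liver ILC1s, 0.19% to 0.219% in liver NK cells and 0.119% to 0.127% in spleen NK cells. Intergenic peaks that were not selected had median levels of 4.75 and 5.29 CPM in salivary gland ILC1s, against 7.23 to 10.6 CPM over the 4 liver libraries and 5.40 and 6.13 in spleen NK cells. The part of this background in the selection was not tested. With TMM scaling, the ratio of salivary gland ILC1s shifted by 0.25 (log2) over liver ILC1s, 0.35 over liver NK cells and -0.03 over spleen NK cells, and the number of selected peaks was 462, which included all 248. Scaling to reads in promoter peaks, chosen after the data were seen, left 187 peaks, all among the 248. With every library thinned to 5609587 reads the rule took 251 peaks, of which 229 were among the 248.

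The marker genes given for these cells did not carry a selected peak. Tmem176a, which encodes a cation channel-like membrane protein, had 15.2 and 18.2 CPM at its only peak in salivary gland ILC1s, against 16.4 and 13.6 in liver ILC1s, 10.6 and 5.53 in liver NK cells and 1.19 and 2.16 in spleen NK cells. Its neighbour Tmem176b had 12.2 and 14.8 CPM in salivary gland ILC1s, against 9.11 and 10.1 in liver ILC1s, 10.8 and 9.80 in liver NK cells and 3.08 and 3.15 in spleen NK cells. Salivary gland and liver ILC1s thus overlapped at Tmem176a, and only the spleen was low at both. At Cxcr6, a chemokine receptor gene of tissue lymphocytes, the 3 peaks summed to 42.2 and 51.2 CPM in salivary gland ILC1s and 59.9 and 62.5 in liver ILC1s, against 10.6 and 8.56 in liver NK cells and 4.41 and 5.13 in spleen NK cells. Over the 93 peaks of the ILC1 identity list, sums were 1872.3 to 1960.3 CPM in salivary gland ILC1s and 2186.2 to 2378.0 in liver ILC1s. Liver NK cells had 1600.5 to 1609.2 and spleen NK cells 1339.5 to 1405.5. The single peak of Eomes, a T-box factor of NK cells, had 57.8 and 73.2 CPM in salivary gland ILC1s, against 30.5 and 26.5 in liver ILC1s, 76.8 and 84.5 in liver NK cells and 106 and 104 in spleen NK cells. At S1pr5 salivary gland ILC1s were lowest instead, with 3 peaks summing to 18.8 and 19.5 CPM. There liver ILC1s had 32.9 and 22.7, liver NK cells 33.8 and 33.2 and spleen NK cells 35.0 and 36.3. Over the 71 peaks of the NK cell identity list, sums were 1145.3 to 1225.8 CPM in salivary gland ILC1s and 1094.3 to 1106.1 in liver ILC1s. Liver NK cells had 1603.5 to 1740.1 and spleen NK cells 1702.6 to 1704.5. Marker genes of salivary epithelium had 40 peaks at 16 of 33 genes and no selected peak, and their summed level was 333 to 351 CPM in salivary gland ILC1s, against 351 to 405 in liver ILC1s, 399 to 474 in liver NK cells and 232 to 260 in spleen NK cells.

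The peak with the highest salivary gland level lay in an intron of Ldlrad4, which encodes a membrane protein that restrains TGF-beta signalling. This peak, at chr18:68226431-68228356 (mm10), had 132 and 115 CPM in salivary gland ILC1s, against 35.8 and 39.2 in liver ILC1s, 23.9 and 33.9 in liver NK cells and 24.3 and 29.5 in spleen NK cells. Next came a peak upstream of Pde4a, a phosphodiesterase gene whose product degrades cyclic AMP, at chr9:21160695-21162113. It had 113 and 112 CPM in salivary gland ILC1s, against 34.2 and 31.2 in liver ILC1s, 22.2 and 21.6 in liver NK cells and 18.2 and 25.7 in spleen NK cells. Both salivary gland libraries were above all others at each, as at every selected peak.

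The third was the peak at Tgfb1, the gene of the cytokine TGF-beta itself, at chr7:25706914-25708729. It had 112 and 78.4 CPM in salivary gland ILC1s, against 20.7 and 14.96 in liver ILC1s, 26.8 and 27.1 in liver NK cells and 21.8 and 26.8 in spleen NK cells. Its salivary gland libraries were less alike than those at Pde4a but stayed at least 2 times above all others.

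Wdyhv1, which encodes an enzyme that deamidates N-terminal glutamine, had the fourth peak. At chr15:58164450-58165781 there were 102 and 83.7 CPM in salivary gland ILC1s, against 12.3 and 8.54 in liver ILC1s, 18.8 and 16.9 in liver NK cells and 10.9 and 8.38 in spleen NK cells. Peak 5 was assigned to the predicted gene Gm13686 and peak 6 to no gene, with salivary gland means of 90.4 and 84.5 CPM and ratios of 3.02 and 3.63 over liver ILC1s, the highest other group at both. The nearest coding gene to the Gm13686 peak was Itgav, 25987 bases away. Peaks of Gm17590, Gm44649, BC067074 and Foxa3 completed the top 10, with salivary gland means between 81.7 and 83.9 CPM.

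**Figure D2:**
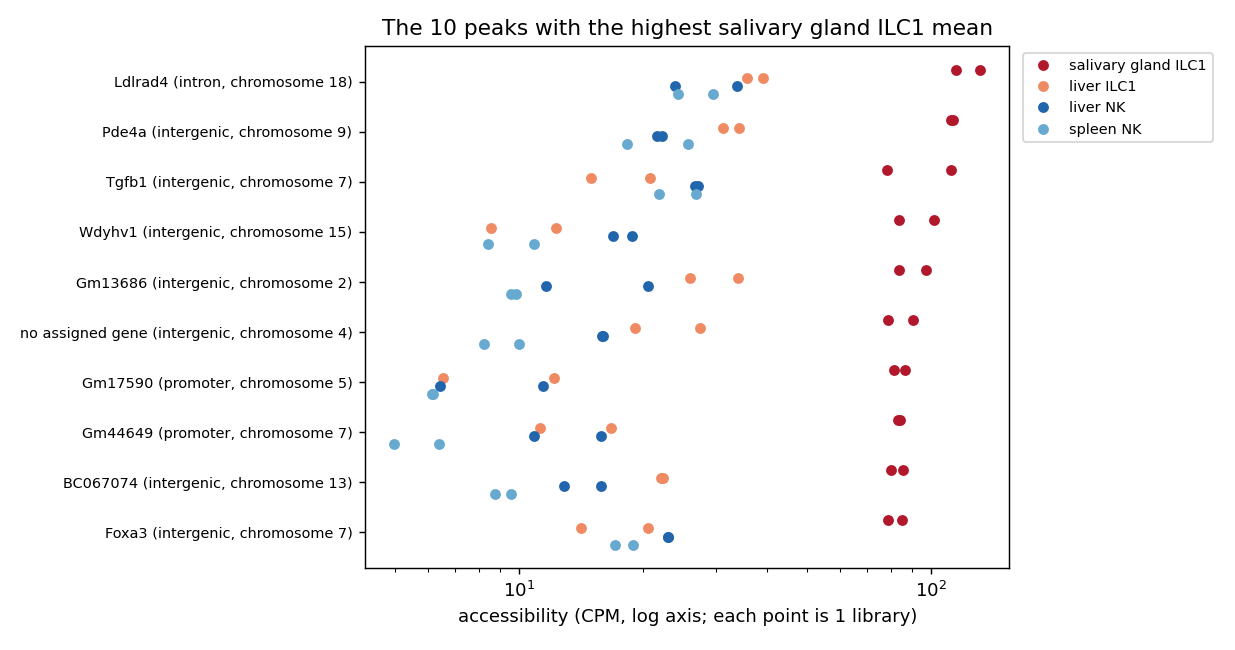
Accessibility (CPM, log axis) of the 10 selected peaks with the highest salivary gland ILC1 mean, 1 point per library and 1 row per peak, labelled with the assigned gene, type and chromosome. In every row both salivary gland points stand right of the other 6 libraries, between 78.4 and 132 CPM.

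By ratio the order was different. The highest ratio, 8.99, was that of the Gm17590 peak, which lies inside Cdk6, a cyclin-dependent kinase gene of the cell cycle. There the values were 86.5 and 81.3 CPM in salivary gland ILC1s, against 12.1 and 6.53 in liver ILC1s, 11.4 and 6.42 in liver NK cells and 6.17 and 6.12 in spleen NK cells. An unassigned peak on chromosome 4, chr4:75730468-75731555, followed at 8.70, and its nearest coding gene was 209682 bases away. A peak of 3110043O21Rik, the mouse C9orf72 gene, had a ratio of 7.51.

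Klrb1, of the NKR-P1 family of lectin-like receptors of NK cells and innate lymphocytes, had an intronic peak with a ratio of 7.46. At chr6:128716918-128717937 there were 32.01 and 30.6 CPM in salivary gland ILC1s, against 4.89 and 3.42 in liver ILC1s, 3.76 and 4.63 in liver NK cells and 0.77 and 1.80 in spleen NK cells. This peak was lowest in spleen NK cells and low in both liver populations. The other peaks among the 10 highest ratios belonged to Snx29 (7.14), Gm24180 (7.09), Pkp4 (6.58), Wdyhv1 (6.57), an unassigned region of chromosome 9 (6.46) and Ostf1 (6.33).

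Some loci held several selected peaks. Of the 248 peaks, 60 (24.19%) lay within 50000 bases of another, in 26 runs, of which 7 had 3 or more. At Cdk6, 4 of the 5 peaks in 24825 bases were selected, and together they summed to 224 CPM in salivary gland ILC1s, against 38.9 in liver ILC1s, 49.4 in liver NK cells and 32.7 in spleen NK cells. At Wdyhv1 and Fbxo32, a ubiquitin ligase subunit gene, all 3 peaks in 18928 bases were selected and summed to 202 CPM, against 25.6, 37.2 and 20.1 in the same order. At Nsmce2, a SUMO ligase gene of genome repair, all 3 in 11944 bases were selected, and their sum was 149.9 CPM in salivary gland ILC1s, against 31.3, 36.2 and 14.96. Dgkd, which encodes diacylglycerol kinase delta, had 3 of 3 in 9396 bases. Pde4a had 3 of 4 in 12253 bases, Ldlrad4 3 of 5 in 36709 bases and Gm25420 3 of 8 in 37505 bases.

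**Figure D3:**
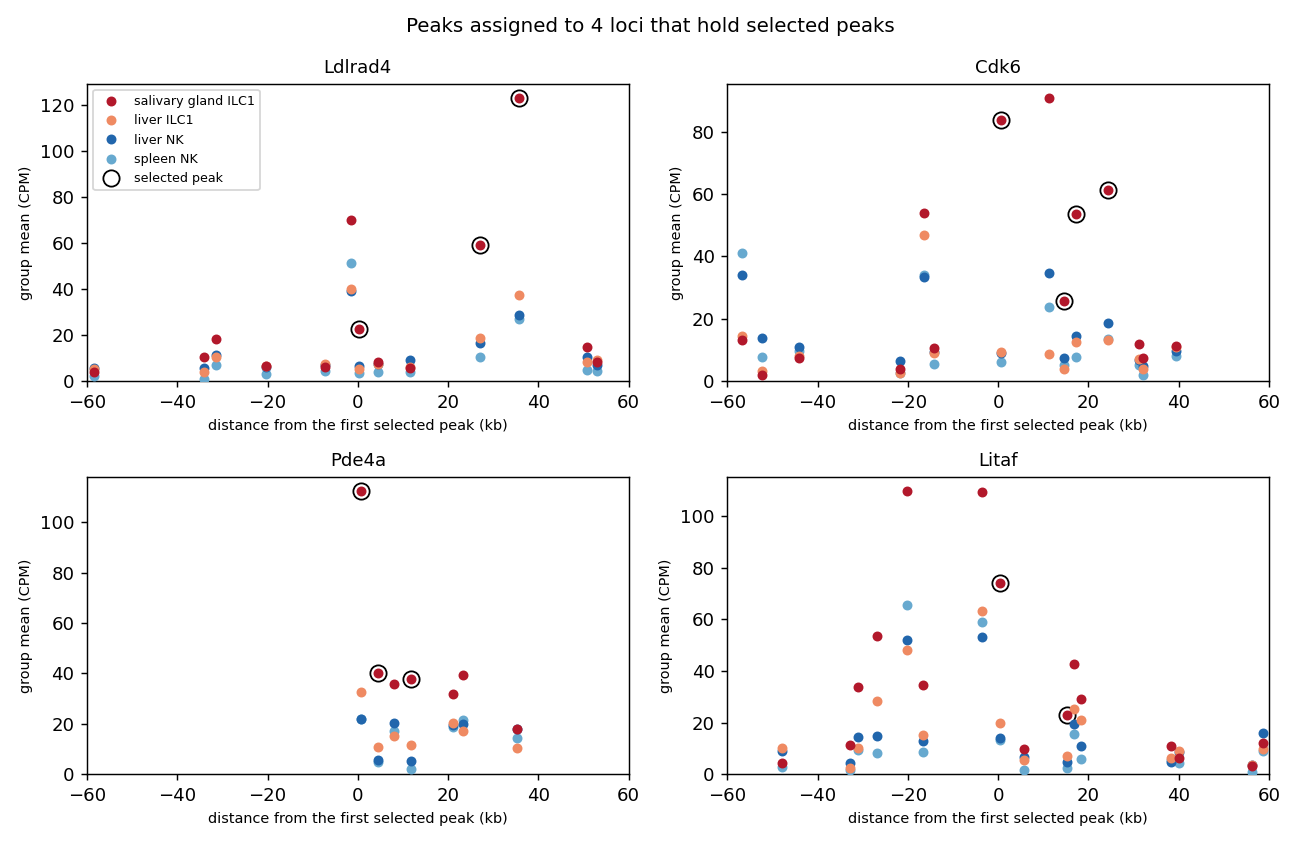
Group mean accessibility (CPM) of peaks assigned to Ldlrad4, Cdk6 (with Gm17590), Pde4a and Litaf, by distance in kb from the first selected peak; colours are the 4 groups and circles mark selected peaks. Beside the selected peaks, some peaks of the same gene have the 4 groups close together, and others are also higher in salivary gland ILC1s. One unselected promoter peak of Litaf has a mean of 110 CPM there, against 47.9 to 65.7 CPM in the other groups. At Ldlrad4 the highest point is at 123 CPM in salivary gland ILC1s.

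The 215 selected peaks with an assigned gene belonged to 188 genes, 1.02% of the 18422 genes with a peak. One selected peak was found at 166 of these genes, 2 at 17 and 3 at 5. At these genes the other 1179 peaks had a median log2 ratio of -0.09 between salivary gland ILC1s and the highest other group, against -0.56 over all other peaks. Of those 1179, 15.86% exceeded the highest other group 1.5 times, against 4.69% of all other peaks. For promoter peaks the shares were 14.49% of 276 and 3.2% of 17961. The peaks of 1 gene share a locus and are not independent, and no test was made.

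Among 20 gene lists, the TGF-beta pathway list held the most genes with a selected peak. It had 6 of its 25 genes with a peak (24%) and 8 of its 153 peaks (5.23%), against 1.02% of all genes and 0.468% of all peaks with a gene. The 6 genes have known roles at different steps of the pathway. Tgfb1 is the ligand. Itgb8 encodes the integrin chain that, with the alpha chain of Itgav, releases TGF-beta from its latent form. Tgfbr3 encodes the co-receptor betaglycan, and Smad3 the signal-carrying SMAD protein. Ldlrad4 and Pmepa1 encode membrane proteins that restrain the signal. The median peak of the list did not stand out, with a log2 ratio of -0.16 between salivary gland ILC1s and the highest other group, against -0.52 for all peaks with a gene. Over the unselected peaks of each gene, the median log2 ratio was -1.04 at Itgb8, -0.75 at Tgfbr3 and -0.50 at Smad3. It was -0.10 at Ldlrad4, 0.32 at Pmepa1 and 0.46 at Tgfb1. The list was chosen with earlier results of these data known, and no test was made.

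The exonic peak of Itgb8 at chr12:119170112-119171400 had 56.1 and 47.1 CPM in salivary gland ILC1s, against 7.93 and 7.23 in liver ILC1s, 15.02 and 17.8 in liver NK cells and 12.2 and 13.1 in spleen NK cells. Tgfbr3 had 1 intronic peak, at chr5:107285409-107286060, with 11.1 and 17.7 CPM in salivary gland ILC1s, against 2.87 and 1.81 in liver ILC1s, 5.32 and 2.67 in liver NK cells and 1.82 and 1.35 in spleen NK cells. At both, as at every selected peak, the salivary gland libraries stood above all others, and at Itgb8 liver ILC1s were the lowest group.

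An intronic peak of Smad3 at chr9:63730340-63730957 was weaker, with 8.47 and 10.1 CPM in salivary gland ILC1s, against 3.04 and 2.61 in liver ILC1s, 4.54 and 1.604 in liver NK cells and 2.59 and 1.80 in spleen NK cells. The exonic peak of Pmepa1 at chr2:173270914-173271713 had 27.3 and 20.4 CPM in salivary gland ILC1s, against 11.3 and 3.21 in liver ILC1s, 5.79 and 9.27 in liver NK cells and 3.15 and 3.87 in spleen NK cells. The other 2 selected peaks of Ldlrad4 had means of 59.2 CPM in salivary gland ILC1s, against 18.7 in liver ILC1s, 16.7 in liver NK cells and 10.3 in spleen NK cells, and of 22.6 CPM in salivary gland ILC1s, against 5.45 in liver ILC1s, 6.68 in liver NK cells and 3.43 in spleen NK cells.

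Of the tissue residency list, 2 of 18 genes had selected peaks. Litaf, which encodes a protein of late endosomes, had 2, and the stronger, at chr16:10996247-10997258, had 78.03 and 70.00 CPM in salivary gland ILC1s, against 18.6 and 21.6 in liver ILC1s, 14.1 and 14.1 in liver NK cells and 14.1 and 12.3 in spleen NK cells. Rgs1, which encodes a regulator that dampens chemokine receptor signals, had a promoter peak at chr1:144250341-144251009 with 23.2 and 20.1 CPM in salivary gland ILC1s, against 5.90 and 8.44 in liver ILC1s, 6.26 and 5.17 in liver NK cells and 3.22 and 5.50 in spleen NK cells. At both, as at every selected peak, the salivary gland libraries stood above the other 6.

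Il23r, the interleukin 23 receptor gene known from type 3 innate lymphoid cells, had 2 selected peaks, which made up the count of the cytokine receptor list and of the ILC3 marker list. The exonic one, at chr6:67434594-67435418, had 14.8 and 16.03 CPM in salivary gland ILC1s, against 6.07 and 2.31 in liver ILC1s, 7.20 and 3.03 in liver NK cells and 0.63 and 1.26 in spleen NK cells. The intronic one, at chr6:67424624-67425564, had 17.7 and 18.4 CPM in salivary gland ILC1s, against 2.87 and 3.21 in liver ILC1s, 5.48 and 6.06 in liver NK cells and 4.06 and 2.43 in spleen NK cells. The remaining ILC3 markers with a peak, 11 of 12, had no selected peak, and the summed level of the list was 458 to 485 CPM in salivary gland ILC1s, against 556 to 592 in liver ILC1s, 504 to 575 in liver NK cells and 327 to 352 in spleen NK cells. S1pr2, a sphingosine 1-phosphate receptor gene, and Nfe2l2, which encodes the oxidative stress factor NRF2, each had 1, with salivary gland means of 17.1 and 27.3 CPM and ratios of 3.31 and 3.10.

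No selected peak was assigned to the lists of ILC1 identity (93 peaks), NK cell identity (71 peaks), cytotoxic granules (51 peaks), inhibitory receptors (49 peaks) or lymphoid transcription factors (256 peaks). The marker lists of T cells, B cells, type 2 innate lymphoid cells, mast cells, macrophages and dendritic cells, endothelium and fibroblasts had none either.

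**Figure D4:**
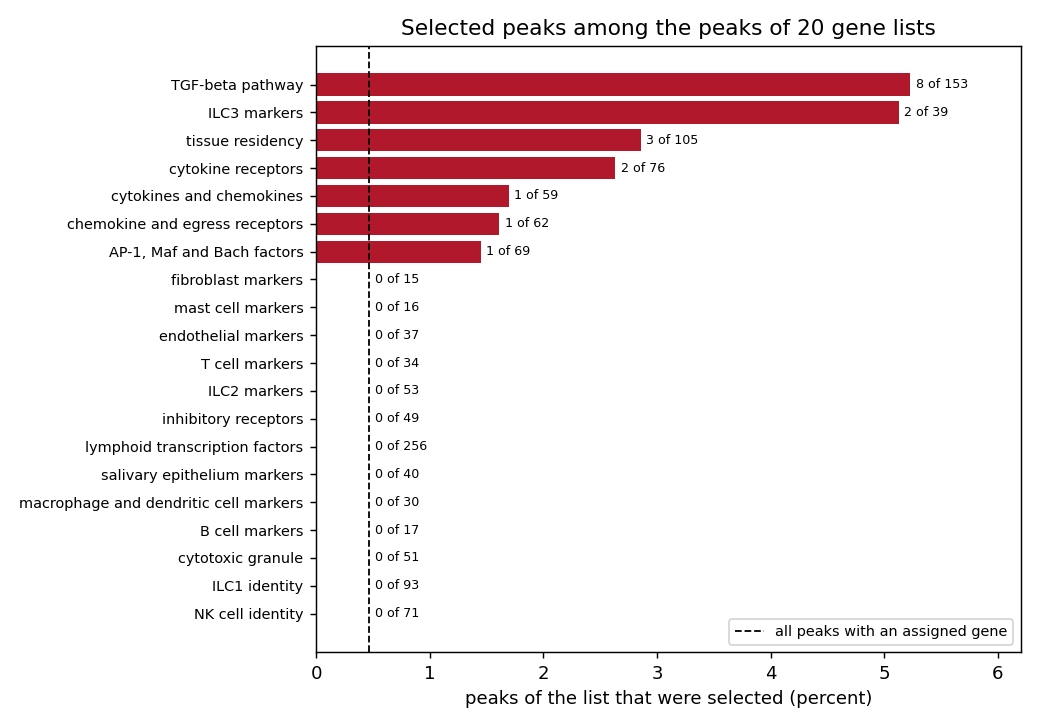
Percent of the peaks of each of 20 gene lists that were selected, with counts beside the bars; the dashed line is the 0.468% found over all peaks with an assigned gene. The TGF-beta pathway list has the longest bar, 8 of 153 peaks, and 13 lists have no selected peak.

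Assignment to a gene by the authors and nearness to a coding gene did not always match. By a rule made after values were seen, 10 selected peaks lay within 100000 bases of a RefSeq coding gene of the non-marker lists while assigned to another gene or to none. The share of all peaks that meet this rule was not counted, so nothing is read from the number. Near Ahr, the aryl hydrocarbon receptor gene of tissue lymphocytes, a peak 27615 bases away had 63.4 and 57.04 CPM in salivary gland ILC1s, against 16.7 and 16.3 in liver ILC1s, 7.67 and 10.9 in liver NK cells and 3.57 and 5.40 in spleen NK cells. Near Tigit, an inhibitory receptor gene, 2 peaks lay 32524 and 36613 bases away, and the higher had 39.1 and 39.8 CPM in salivary gland ILC1s, against 8.94 and 7.73 in liver ILC1s, 5.16 and 10.5 in liver NK cells and 5.82 and 7.03 in spleen NK cells. Near Pdcd1, which encodes the inhibitory receptor PD-1, a peak 21710 bases away had 40.4 and 29.9 CPM in salivary gland ILC1s, against 11.8 and 8.74 in liver ILC1s, 11.1 and 11.2 in liver NK cells and 8.48 and 6.39 in spleen NK cells. The others lay near Itgav, Nt5e, Atf3, Xcl1, Zeb1 and Itga1, with salivary gland means between 8.75 CPM at Itga1 and 90.4 CPM at Itgav. Which gene any of these peaks acts on was not measured.

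The order among the 3 other groups was not fixed by the rule, but it capped the mean of each of them, so nothing is read from the shares of selected peaks called between them against the shares of all peaks. With edgeR, 16 of 248 were higher and 12 lower in liver ILC1s than in liver NK cells at an adjusted p below 0.05, which is 6.45% and 4.84%. Of all 51292 peaks tested, 9.83% were higher and 8.85% lower, and the median log2 fold change was 0.02 for the selected peaks and 0.00 for all. Without replicate 1 of liver NK cells the counts were 8 and 3, and without replicate 2 of liver ILC1s they were 7 and 4. Without replicate 1 of liver ILC1s the lower count was 20.

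All 3 selected Pde4a peaks were called higher in liver ILC1s. The intronic one had 12.5 and 10.6 CPM in liver ILC1s, against 6.88 and 3.39 CPM in liver NK cells, a log2 fold change of 1.25 (SE 0.27, edgeR adjusted p = 0.000128). The promoter one had 10.96 and 10.4 CPM in liver ILC1s, against 6.10 and 5.17 CPM in liver NK cells, a log2 fold change of 1.02 (SE 0.27, edgeR adjusted p = 0.00195). Of the 3, the upstream peak that was highest in the salivary gland changed least, by 0.68 (SE 0.21, edgeR adjusted p = 0.0104). Among the groups whose order the rule left free, liver ILC1s had a higher mean than both NK cell groups at all 3 Pde4a peaks. The place of salivary gland ILC1s as the highest was set by the rule.

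A peak near Pnrc1, a nuclear receptor coactivator gene, had 8.43 and 7.53 CPM in liver ILC1s, against 3.29 and 3.74 CPM in liver NK cells, with a log2 fold change of 1.28 (SE 0.32, edgeR adjusted p = 0.00107). The Gm13686 peak near Itgav had 25.98 and 33.9 CPM in liver ILC1s, against 20.5 and 11.6 CPM in liver NK cells, with a log2 fold change of 1.02 (SE 0.21, edgeR adjusted p = 2.86e-05); without replicate 2 of liver ILC1s its adjusted p was 0.052. Peaks of Atp6v0a1, a proton pump subunit gene, and of Snx29, a sorting nexin gene, were higher too, by 1.80 (SE 0.51, edgeR adjusted p = 0.00502) and 1.08 (SE 0.35, edgeR adjusted p = 0.0157). Atp6v0a1 had 0 and 2.14 CPM in liver NK cells, and its call was lost without replicate 1 of either liver group (lowest adjusted p = 0.24 among the alternatives that lost it). Snx29 lost its call without replicate 1 of liver ILC1s or replicate 2 of liver NK cells.

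Lower in liver ILC1s was the Itgb8 peak, with 7.93 and 7.23 CPM in liver ILC1s, against 15.02 and 17.8 CPM in liver NK cells and a log2 fold change of -1.02 (SE 0.24, edgeR adjusted p = 0.000314). A peak near Poli, a DNA polymerase gene of damage tolerance, had 1.52 and 1.91 CPM in liver ILC1s, against 7.04 and 5.17 CPM in liver NK cells, with a log2 fold change of -1.69 (SE 0.38, edgeR adjusted p = 0.000202). Peaks of the ubiquitin protease gene Usp28 (log2 fold change -1.21), Fry (-0.98), Cdk6 (-0.96) and the biotin ligase gene Hlcs (-0.87) were also lower, and each of the 4 calls was lost without replicate 1 of liver NK cells. Without replicate 2 of liver ILC1s those of Fry, Cdk6 and Hlcs were lost too, and without replicate 1 of liver ILC1s that of Usp28. At the Itgb8 and Poli peaks liver ILC1s had the lowest mean of the 4 groups. The place of salivary gland ILC1s as the highest was set by the rule.

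NK cells of the 2 organs, whose means the rule capped too, were compared in the same way. With edgeR, 78 of 248 (31.45%) were higher and 1 (0.4%) was lower in liver than in spleen NK cells, against 19.8% and 20.9% of all peaks. The median log2 fold change was 0.45 for the selected peaks and 0.11 for all, and 205 of 248 were above 0. Without replicate 1 of liver NK cells 34 were higher and 0 lower, without replicate 2 of them 5 were lower, and without replicate 1 of spleen NK cells 40 were higher and 2 lower. Spleen NK cells had the lowest mean of the 4 groups at 216 selected peaks, and were below both liver groups at 87.1% of selected peaks and 61.43% of all peaks. The level of unselected intergenic peaks moved the same way, at 10.6 and 9.63 CPM in liver NK cells and 5.40 and 6.13 CPM in spleen NK cells, and its part in the result was not tested.

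The phosphate-regulating endopeptidase gene Phex had the greatest difference, with 5.32 and 6.42 CPM in liver NK cells, against 0.77 and 1.17 CPM in spleen NK cells and a log2 fold change of 2.23 (SE 0.40, edgeR adjusted p = 9.92e-07). The exonic Il23r peak had 7.20 and 3.03 CPM in liver NK cells, against 0.63 and 1.26 CPM in spleen NK cells, with a log2 fold change of 2.10 (SE 0.41, edgeR adjusted p = 8.56e-06); without replicate 1 of liver NK cells its log2 fold change was 1.40 (edgeR adjusted p = 0.0569). S1pr2 had 3.29 and 5.53 CPM in liver NK cells, against 1.05 and 0.90 CPM in spleen NK cells, a log2 fold change of 1.76 (SE 0.42, edgeR adjusted p = 0.000218). Both spleen libraries were below both liver NK libraries at each of these peaks.

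Usp37, a ubiquitin protease gene, Pex16, a gene of peroxisome assembly, and Myo1e, an unconventional myosin gene, were higher in liver NK cells by 1.81 to 2.01 on the log2 scale. From the TGF-beta pathway list, Pmepa1 (log2 fold change 0.73, SE 0.30, edgeR adjusted p = 0.042) and Tgfbr3 (0.94, SE 0.40, edgeR adjusted p = 0.0463) were called, and both calls were lost with DESeq2 and when either spleen NK library was left out. Leaving out replicate 2 of liver NK cells ended the Pmepa1 call, and replicate 1 the Tgfbr3 call. The other 6 peaks of that list, at Itgb8, Tgfb1, Smad3 and Ldlrad4, were not called, with log2 fold changes between -0.27 and 0.57. The only peak called lower was assigned to Tmem189, at -0.58 (SE 0.21, edgeR adjusted p = 0.0154), and its call was lost without replicate 1 of liver NK cells or replicate 2 of spleen NK cells.

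**Figure D5:**
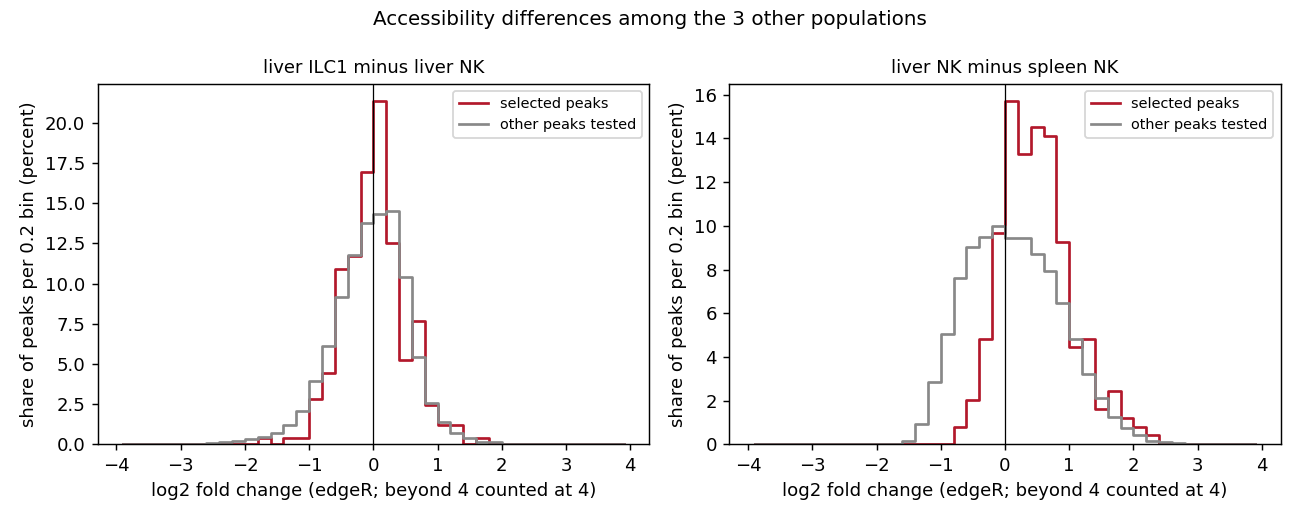
Share of peaks (percent per bin of 0.2) by log2 fold change from edgeR, for the 248 selected peaks and for the other peaks tested, in liver ILC1s minus liver NK cells (left) and liver NK cells minus spleen NK cells (right). On the left both curves centre near 0, and on the right the selected peaks have a median of 0.45.

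RNA of the salivary gland was not analysed here, so expression of the assigned genes is known only for the liver. Of the 188 genes, 156 were in the RNA table and 141 passed the filter on low counts. With edgeR, 7 were higher and 4 lower in liver ILC1s (mean of DP, FMSP and DN) than in liver NK cells, which is 4.96% and 2.84% of those tested. Of all 17124 genes tested, 2.9% were higher and 3.02% lower. With the mouse as a block the counts were 17 and 7, and in mice 4 to 6 alone 17 and 9. Without DP of mouse 4, NK of mouse 5 or NK of mouse 6 the higher count was 3, and without NK of mouse 4 it was 4. The shares of all genes called in these alternatives are not given here, so nothing is read from the moves.

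Summed markers of other lymphocytes differed in this contrast, and single markers went both ways. The 17 T cell markers summed to 1721 to 2768 CPM in the ILC1 libraries, against 543 to 987 CPM in the NK libraries. Of them 4 were higher in every ILC1 library than in any NK library, and 1, Cd247, was lower. Trbc1 alone had 452 to 1018 CPM in ILC1 libraries and 164 to 438 CPM in NK libraries. Cd3g, a subunit of the T cell receptor complex, had 171 to 1195 CPM in ILC1 libraries and 2.04 to 15.8 CPM in NK libraries. Cd247, another subunit of that complex, had 28.9 to 161 CPM in ILC1 libraries and 201 to 324 CPM in NK libraries. The 14 markers of type 3 innate lymphoid cells summed to 688 to 1519.8 CPM in ILC1 libraries, against 104 to 120.3 CPM in NK libraries, and again 4 lay wholly above, which were Lta, Ltb, Tmem176a and Tmem176b. Of that list the defining cytokine genes Il22 and Il17a were at 0 in all 15 libraries. The 14 markers of type 2 innate lymphoid cells summed to 222 to 511 CPM in ILC1 libraries, against 689 to 863 CPM in NK libraries. Klrg1 made up most of the NK sum, with 547 to 716 CPM in NK libraries and 11.2 to 124.6 CPM in ILC1 libraries. It was the 1 marker of that list wholly lower in ILC1 libraries. Another 1, Bcl11b, was wholly higher there, at 34.0 to 122 CPM against 3.22 to 11.5 CPM. The 12 B cell markers summed to 629.7 to 1073.8 CPM in ILC1 libraries, against 304 to 651.7 CPM in NK libraries, with overlap. The part of such cells in the counts was not tested.

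Inpp4b, a phosphatase gene that curbs phosphoinositide signalling, was far higher in ILC1s. It had 137, 346, 452 and 403 CPM in DP cells, 139, 320.5, 368 and 314 in FMSP cells and 39.6, 324 and 387 in DN cells, against 0.92, 3.54, 6.41 and 1.74 in NK cells. The log2 fold change was 6.51 (SE 0.78, edgeR adjusted p = 8.14e-05), and no ILC1 library overlapped the NK libraries. Its promoter-type peak in the ATAC-seq, at chr8:81742232-81743575, had 16.5 and 16.4 CPM in salivary gland ILC1s, against 3.04 and 2.91 in liver ILC1s, 5.48 and 5.35 in liver NK cells and 2.24 and 2.97 in spleen NK cells.

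Pmepa1 had 20.1, 9.85, 6.75 and 2.03 CPM in DP cells, 14.9, 6.59, 4.04 and 4.01 in FMSP cells and 306, 6.54 and 7.14 in DN cells, against 1.39, 1.68, 1.30 and 1.11 in NK cells, a log2 fold change of 3.84 (SE 1.02, edgeR adjusted p = 0.0356). DN of mouse 2 stood far above the rest, and without it the log2 fold change was 2.51 (edgeR adjusted p = 0.0265). Within mice 4 to 6 it was 2.11 (edgeR adjusted p = 0.0323), as with the mouse as a block (2.11, edgeR adjusted p = 0.0045). In DN of mouse 2, 13 endothelial markers summed to 1095 CPM and 13 fibroblast markers to 169.8 CPM, against at most 188 and 87.1 CPM in the other 14 libraries. There too, 33 salivary epithelium markers summed to 1511 CPM, 22 macrophage and dendritic cell markers to 3913 CPM and 10 mast cell markers to 183 CPM, against at most 303, 2134 and 97.1 CPM in the others. The part of these cells in the Pmepa1 value was not tested. Left out singly, NK of mouse 1, 4, 5 or 6 or DP of mouse 4 also ended the call.

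Rgs1 had 151, 523, 531 and 399 CPM in DP cells, 78.3, 509, 472 and 356 in FMSP cells and 60.9, 284 and 394 in DN cells, against 12.5, 54.9, 85.8 and 101 in NK cells. Its log2 fold change was 2.36 (SE 0.65, edgeR adjusted p = 0.0423), the libraries of both cell types overlapped, and within mice 4 to 6 the adjusted p by edgeR was 2.98e-05 at a log2 fold change of 2.37. With the mouse as a block the log2 fold change was 2.41 (SE 0.26, edgeR adjusted p = 0.00028). In the fit without the block, leaving out any 1 of 12 libraries ended the call, with edgeR adjusted p up to 0.136. Rftn1, a lipid raft protein gene, had 323, 155, 193 and 133 CPM in DP cells, 394, 159, 148 and 144 in FMSP cells and 129, 96.1 and 139.6 in DN cells, against 85.2, 29.01, 39.5 and 26.9 in NK cells, with a log2 fold change of 1.94 (SE 0.39, edgeR adjusted p = 0.00638).

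Matk, a kinase gene whose product restrains Src-family kinases, was higher by 3.06 (SE 0.82, edgeR adjusted p = 0.0386). With the mouse as a block its adjusted p missed the threshold (1.94, edgeR adjusted p = 0.137), as it did in mice 4 to 6 alone (2.43, edgeR adjusted p = 0.0667) and when any 1 of 9 libraries was left out.

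Lower in ILC1s were Smad3, Fry and Ostf1. Smad3 had 54.8, 68.7, 56.9 and 66.1 CPM in DP cells, 75.8, 73.7, 58.3 and 38.9 in FMSP cells and 22.2, 64.9 and 62.3 in DN cells, against 191, 132, 119.9 and 92.5 in NK cells, with a log2 fold change of -1.22 (SE 0.25, edgeR adjusted p = 0.00749) and no overlap. Fry was lower by a log2 fold change of -2.07 (SE 0.45, edgeR adjusted p = 0.0105), with DN of mouse 4, at 15.5 CPM, above NK of mouse 1, at 13.3 CPM. Ostf1, which encodes a small signalling adaptor, had a log2 fold change of -0.95 (SE 0.14, edgeR adjusted p = 0.000381), with all ILC1 libraries below all NK libraries. Also called, outside the rule for named genes, were Adamts17, which was higher, and the predicted gene Gm6990, which was lower.

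Other genes of the TGF-beta pathway list with a selected peak were not called in liver RNA. Tgfb1 averaged 129 ± 21.2 CPM in DP cells, 129.7 ± 41.4 in FMSP cells and 124 ± 12.6 in DN cells, against 123 ± 30.4 in NK cells (SD, n = 4, 4, 3 and 4), with a log2 fold change of 0.05 (SE 0.20, edgeR adjusted p = 0.957). Ldlrad4 had a log2 fold change of -0.76 (SE 0.38, edgeR adjusted p = 0.328). Itgb8 stayed at or below 6.34 CPM in all 15 libraries and was listed at 0 in 8 of them. Tgfbr3 reached 61.5 CPM in DN of mouse 2 and at most 8.74 CPM elsewhere. Litaf, of the tissue residency list, was not called either (log2 fold change 0.62, SE 0.23, edgeR adjusted p = 0.165). With the mouse as a block it was called higher in liver ILC1s (edgeR adjusted p = 0.0476). The listed genes Tmem176a and Tmem176b, which held no selected peak, were higher in liver ILC1s by 5.39 (SE 0.47, edgeR adjusted p = 4.84e-06) and 4.89 (SE 0.44, edgeR adjusted p = 5.54e-06).

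Between DP and DN cells, which differ in present and past granzyme C expression, no gene with a selected peak was called by edgeR. An unadjusted edgeR p below 0.05 was found for 13 of 141, against 1754 of all 17124 genes tested, so nothing is read from it. DESeq2 called 1 higher and 1 lower, and its share over all genes is not given here. Of all genes tested, edgeR called 0.0117% higher and 0.0467% lower. Litaf averaged 134 ± 20.5 CPM in DP cells and 82.1 ± 21.6 CPM in DN cells (SD, n = 4 and 3), a log2 fold change of 0.71 (SE 0.29, edgeR adjusted p = 0.44). Rgs1 averaged 401 ± 177 CPM in DP cells and 246 ± 170 CPM in DN cells, a log2 fold change of 0.70 (SE 0.74, edgeR adjusted p = 0.89).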

How the data were processed

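Per the submitters' processing notes, Bowtie2, SAMtools, MACS2, Salmon 1.6 and DESeq2 were used with the build mm10. ATAC-seq values were deposited as read counts per peak in 1 shared set of 51412 peaks, with the authors' gene and type for each, and RNA values as the authors' expected counts per gene, which are whole numbers in the file. Peak coordinates are as deposited. Selection used CPM from the column sums of the counts. Tests used edgeR 4.0.16 in R 4.3.3 (quasi-likelihood, robust, TMM, filterByExpr at a minimum count of 10), with 1 mean per group over 8 ATAC-seq or 15 RNA-seq libraries, 2-sided, Benjamini-Hochberg adjusted over all features, and a call at 0.05. DESeq2 1.42.0 was an alternative. The test was also run on counts simulated from the dispersions of these data, without mouse or batch effects. Nothing about the real libraries is read from that run. Library totals were 5609587 to 26944890 for ATAC-seq and 51641248 to 73309063 for RNA-seq. Low counts limit precision.

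The selected peaks and gene lists were chosen with earlier results of these data known. Named peaks were the 10 highest by salivary gland mean, the 10 highest by ratio (0.1 CPM added to both), those at listed genes, the 10 genes with most peaks, 3 beside each limit, and up to 6 called per direction and ATAC-seq contrast. For RNA, up to 10 called genes per direction at 10 CPM or more were named, without predicted genes, with Tmem176a and Tmem176b always. One gene that the rule names is not reported here. Mouse numbers in the RNA labels are animals and pair the libraries. Deviations from group means correlated with a median r of 0.12 over 16 pairs of 1 mouse (0.03 to 0.47). Over 68 pairs of different mice the median was -0.02 (-0.32 to 0.44). The highest of the latter lay within mice 1 to 3, such as NK of mouse 1 with FMSP of mouse 3 (0.44). High r was thus not limited to pairs of 1 mouse. The main RNA fits did not use the pairing by mouse, and values with the mouse as a block stand beside results they change. Nearest genes, promoter windows and their sequences come from RefSeq on GRCm38.p6, the same assembly as mm10. A motif search over the peaks was not run, since no genome sequence was used here.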

Additional observations from a re-analysis of the deposited data

Results flagged for a closer look

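In 54 groups of RNA libraries, made up of 18 genes in DP, FMSP and NK cells (n = 4 each), 6 groups held 1 library far from the other 3 by Dixon's gap rule. Chance flags about 1 in 20 groups. For Fry, DP of mouse 6 had 5.91 CPM, against 2.60 to 3.08 CPM in the other DP libraries. Also for Fry, NK of mouse 1 had 13.3 CPM, against 24.7 to 26.88 CPM in the other NK libraries. Itgb8 had 4.65 CPM in DP of mouse 6 and 4.22 CPM in FMSP of mouse 6, with at most 0.783 and 0.314 CPM in the other libraries of those populations. Rftn1 had 394 CPM in FMSP of mouse 3, against 144 to 159 CPM in the other FMSP libraries. Tgfbr3 had 3.65 CPM in DP of mouse 4, against at most 0.614 CPM in the other DP libraries.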

How the results depend on the processing

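The number of selected peaks was 248 as reported, 462 with TMM scaling, 493 with DESeq2 size factors, 966 at a fold limit of 2, 25 at a fold limit of 5 and 122 when every library pair had to differ 3-fold. Floors of 1 and 5 CPM gave 248 and 246, leaving out 1 library 208 to 277, and replicate 1 or 2 alone 222 or 310. Of the 16 peaks called higher and 12 lower in liver ILC1s than in liver NK cells, DESeq2 called 10 and 7, a fit of the compared groups alone 10 and 3, and fits without 1 library 7 to 15 and 3 to 20. Without 1 library, 34 to 74 peaks were higher and 0 to 5 lower in liver than in spleen NK cells. In the RNA of ILC1s against NK cells, 11 genes were higher by DESeq2, 3 with no filter, 17 with the mouse as a block, 17 in mice 4 to 6 and 3 to 7 without 1 library, and 7 were lower with the block, 9 in mice 4 to 6 and 3 to 6 without 1 library. Leaving out 3 libraries high in hepatocyte markers (DN of mouse 2, FMSP of mice 5 and 6, at 1643 to 3228 CPM summed over 18 markers, against at most 582 CPM elsewhere), chosen after the data were seen, gave 7 and 4. For DP against DN, 1 gene was higher by DESeq2, with the block and in mice 4 to 6, and 1 was lower by DESeq2. The shares of all features called in these alternatives are not given here, and the cause of these moves was not tested.

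Among single peaks and genes named, 889 values under alternatives stayed on their side of the threshold, 70 lost a call, 8 gained one and 0 called values changed sign. The replicate block moved the ATAC-seq counts to 16 and 13 and to 79 and 1. There the labels give mouse replicate numbers, and whether a number marks the same animals across groups is not stated. Deviations of the 12 pairs sharing a number correlated with a median r of 0.007. With 2 libraries a group the deviations mirror each other, so these pairs repeat values. This r cannot decide whether the numbers pair the libraries. The comparison of ILC1s with NK cells in RNA uses all 4 populations, so a fit of the compared groups alone is the same fit. Selected peaks held as few as 0 to 10 counts in the 4 liver libraries, which limits their fold changes.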

Other observations

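A promoter-type peak assigned to the microRNA gene Mir30a, at chr1:23271215-23272641 (mm10), was not selected and was singled out after its values were seen. It had 376 and 6.27 CPM in salivary gland ILC1s, against 11.6 and 8.64 in liver ILC1s, 14.4 and 13.9 in liver NK cells and 94.0 and 241 in spleen NK cells. The 2 salivary gland libraries disagreed more at this peak than the range of 0.63 to 1.90 found for replicate 1 over replicate 2 at the 248 selected peaks.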
